A study of Mus musculus with 8 samples.

Results

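The genes described here encode 10 secreted glycoproteins of the extracellular matrix: fibronectin (Fn1), the fibrillins Fbn1 and Fbn2, the fibulins Fbln1 and Fbln2, emilin 1 (Emilin1), and the matricellular or related proteins periostin (Postn), tenascin C (Tnc), SPARC (Sparc) and follistatin-like 1 (Fstl1). They were taken by symbol from a table of 55487 mouse genes, and all 10 were found and passed the filter on low counts that left 13280 genes for testing. Their RNA was measured in mouse embryonic stem cells of the line E14-Tg2a that had been differentiated in vitro, in serum-free medium, towards precardiac mesoderm and collected on day 6. The parental line, labelled WT, gave 4 libraries, and line E14-Tg2a 4D, labelled Tbx1-/-, gave 4. Tbx1 encodes a T-box transcription factor of the pharyngeal and second heart field mesoderm. All mutant cultures came from the single line 4D, so that the genotype and other features particular to 4D cannot be told apart. The labels call the 4 libraries of each line biological replicates.

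Fibronectin is laid down first in many embryonic matrices and serves as a scaffold for other matrix proteins, which cells bind through integrins. Fibrillins polymerize into microfibrils, on which fibulins, emilins and elastin assemble into elastic fibres. Matricellular proteins add little mechanical strength and instead alter how cells attach to and signal through the matrix. In the developing heart, periostin and fibulins are known from the cushions that form valves and septa, and fibronectin is required for early heart and vessel formation.

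RNA was counted by QuantSeq, which reads the 3′ end of polyadenylated transcripts. A gene's count is therefore not expected to grow with transcript length. Levels were compared between genes as CPM, counts scaled to a common library total by the trimmed mean of M values (TMM). Differences between genes in how well their 3′ ends were captured were not tested. Totals ranged from 3803561 to 6293907 counts per library. Mutant library 4 stood apart, with counts detected for 14850 genes where the other 7 libraries had 18213 to 19134, so results for Postn, the gene that passed the test, are also given without it. Tbx1 had 39, 65, 38 and 22 counts in parental libraries 1 to 4, whereas mutant libraries 1 to 4 had 3, 0, 1 and 0. With the mutant libraries set at a floor of 3 counts each, the parental mean was at least 11.7-fold higher. Of the mesodermal heart field markers, Hand1 (615 CPM in parental and 469 CPM in the mutant libraries on average) and Hand2 (351 and 462 CPM) were the most abundant. The pluripotency marker Pou5f1 had 24 counts in all 8 libraries together, while Nanog had 126. The most abundant markers of that list were Klf4 (12.1 and 16.5 CPM) and Tdgf1 (16.5 and 7.58 CPM). Calls in the other marker lists, at an edgeR adjusted p under 0.05, stand against 1.42% of all tested genes called (0.745% higher and 0.67% lower). Of 9 blood markers 4 were called higher, the most abundant being the globin gene Hbb-bh1 (106 and 427 CPM). In 10 heart field markers 1 was called higher and 2 lower, Tbx1 itself being among the lower ones, while DESeq2 and limma-voom each called 6. In 7 markers of definitive endoderm and epithelium 2 were lower by edgeR and DESeq2 and 1 gene was called by limma-voom. Lists for cardiomyocytes, smooth muscle, endothelium, parietal and visceral endoderm, neural and pluripotent cells held 45 tested genes with 0 calls by edgeR, DESeq2 or limma-voom and 11 at an unadjusted p under 0.05, a threshold that 11.9% of all tested genes passed. Of those 11, 7 were among the 10 cardiomyocyte markers.

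The matrix genes covered a wide range of levels, and 3 of them dominated. Sparc, Fn1 and Fstl1 together made up 75.7% to 81.3% of the summed CPM of the 10 genes in each library. The 10 genes together took 0.171% to 0.251% of all parental counts and 0.209% to 0.289% of all mutant counts, ranges that overlap. In parental libraries the order of mean levels was Sparc, Fn1, Fstl1, Fbn2, Fbln1, Fbn1, Emilin1, Postn, Fbln2 and Tnc. Neighbours in that order whose library ranges overlapped were Sparc with Fn1, Fbn1 with Emilin1, Postn with Fbln2, and Fbln2 with Tnc. In mutant libraries Postn stood ahead of Emilin1 and next to Fbn1, with ranges that overlapped both, while Tnc and Fbln2 were again the lowest pair.

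**Figure D1:**
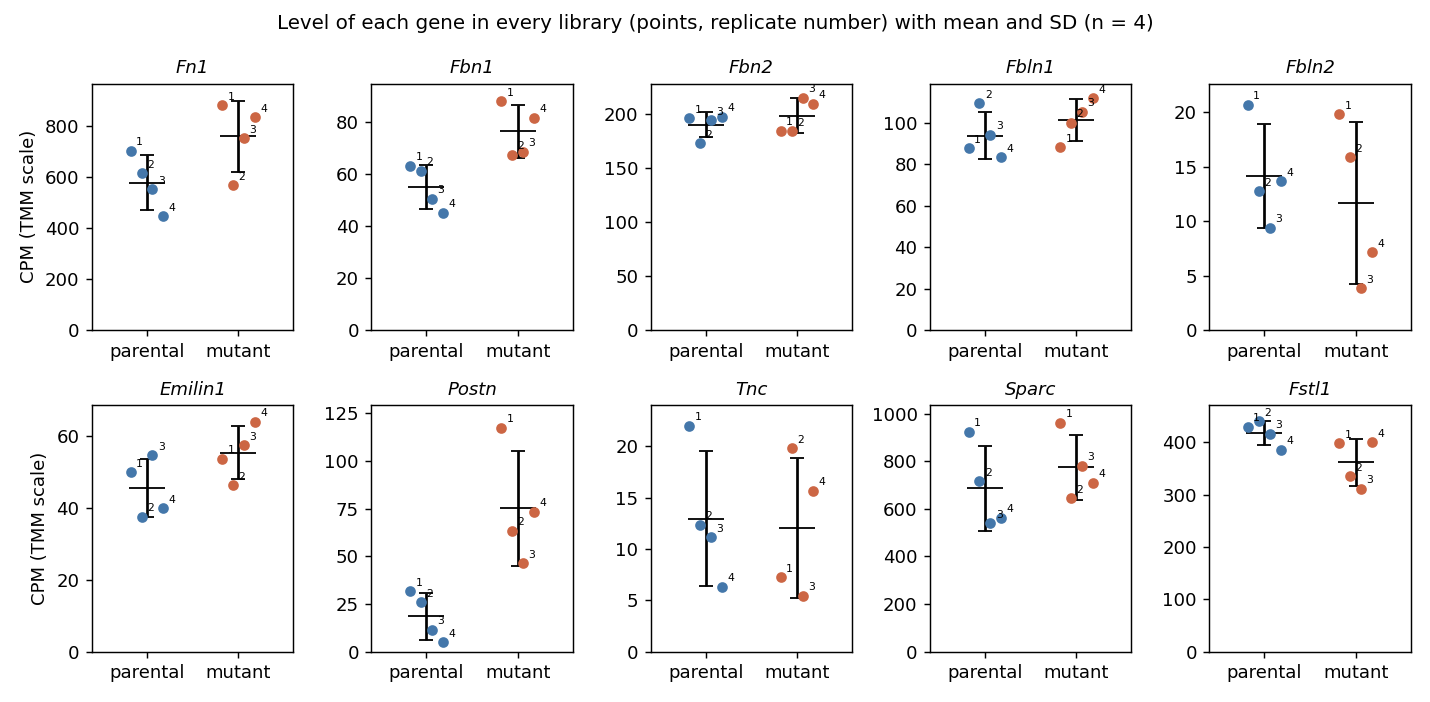
CPM on the TMM scale of each of the 10 matrix genes in parental (blue) and mutant (orange) libraries, with 1 point per library labelled by replicate number, and horizontal and vertical bars for the mean and SD (n = 4). The lines are separate for Postn (5.06 to 31.6 against 46.5 to 117 CPM) and Fbn1 (45.1 to 63.1 against 67.3 to 88.0 CPM) and overlap for the other 8 genes.

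Across the group, Postn rose in the mutant line and no other gene passed the test. That is 1 of 10 genes called, against 1.42% of all tested genes (0.745% called higher and 0.67% called lower), with edgeR's quasi-likelihood test and a Benjamini-Hochberg adjusted p under 0.05. By sign, 7 of the 10 fold changes were positive. The median log2 fold change was 0.14, beside 0.00 over all tested genes, and the median absolute log2 fold change was 0.24, the same to this precision as over all tested genes. Values of the lines were fully separate for 2 of the 10, Postn and Fbn1, against 7.52% of all tested genes. An unadjusted p under 0.05 was found for 3 of the 10, Postn, Fbn1 and Fn1, against 11.9% of all tested genes. The samples are bulk cultures, in which fewer cells of a type and less RNA per cell cannot be told apart.

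**Figure D2:**
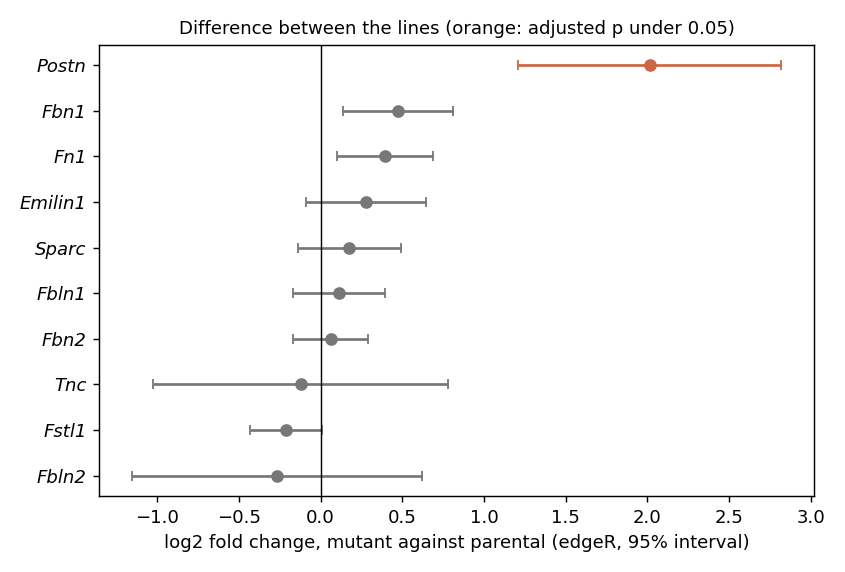
The log2 fold change of each of the 10 matrix genes, mutant against parental, from edgeR with its 95% interval (x axis); orange marks an adjusted p under 0.05. Postn, at 2.01 with an interval of 1.21 to 2.82, is the gene past the threshold, and the intervals of Fn1 and Fbn1, which are not adjusted for the number of genes tested, lie above 0.

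Periostin binds fibronectin, tenascin C and collagen I and is a marker of valve and other fibroblastic mesenchyme. Postn (ENSMUSG00000027750.16) codes for protein and lies at 54361109 to 54391037 of chromosome 3, plus strand (GRCm38). Parental libraries 1 to 4 held 174, 145, 72 and 24 Postn counts, or 31.6, 26.0, 11.5 and 5.06 CPM. Mutant libraries 1 to 4 held 699, 291, 256 and 267 counts, or 117, 63.4, 46.5 and 73.4 CPM. Every mutant library lay above every parental library, and library 1 was the highest of each line. The mean was 18.5 ± 12.4 CPM in parental and 75.2 ± 30.3 CPM in the mutant libraries (SD, n = 4), a fitted rise of 4.04-fold. On the log2 scale this was 2.01 ± 0.38 (SE; edgeR adjusted p = 0.00847). Without mutant library 4 it was 2.02 (edgeR adjusted p = 0.00978). The call was lost without parental library 3 (1.83, edgeR adjusted p = 0.0515) and with robust empirical Bayes in edgeR (2.01, adjusted p = 0.143).

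Postn varied widely between cultures of the same line. Its parental SD was 66.7% of the mean, where counting alone would give 9.82%. Among 9026 tested genes with a mean of at least 10 CPM, 0.355% had a parental SD as large relative to the mean, and the median was 15.6%. The highest parental value was 6.26 times the lowest. In mutant libraries the SD was 40.3% of the mean, and 10.4% of genes reached that value there.

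Some markers of mesenchyme and fibroblasts also differed between the lines. The summed level of the 10 tested markers of that list was 1084 to 1494 CPM in parental and 2093 to 2628 CPM in the mutant libraries, without overlap. This list, like the others, was chosen with earlier results of these data known. Of these 10 markers, 3 were called higher and 0 lower, against 1.42% of all tested genes called: Col1a2, Col3a1 and Twist1. Both collagen genes encode chains of fibrillar collagen, and Twist1 encodes a transcription factor of mesenchyme. Twist1 was at 91.4 CPM in parental and 223 CPM in the mutant libraries on average. Col1a2 was at 598 and 1143 CPM and Col3a1 at 87.0 and 425 CPM. These 3 called genes are part of the summed level, which is therefore not separate from their calls. The other 7 did not pass. Among them Prrx1 (55.4 and 109 CPM, edgeR adjusted p = 0.066), Pdgfrb (27.2 and 39.1 CPM) and Twist2 (30.9 and 43.9 CPM) had higher mutant means. Pdgfra (108 and 96.4 CPM) and Col1a1 (248 and 267 CPM) differed less, Dcn was at 3.06 and 3.76 CPM, and Tcf21 at 3.35 and 3.31 CPM. From parental library 1 to 4 Postn fell from 31.6 to 5.06 CPM. Col1a2 (786 to 466 CPM) and Col3a1 (121 to 60.9 CPM) also fell between these libraries. Twist1 (70.0 to 115 CPM) and Prrx1 (30.5 to 86.2 CPM) rose instead. Apart from Col1a2 and Col1a1, the markers of this list were named after their values were seen. Of the 10 markers, 6 had an unadjusted p under 0.05, against 11.9% of all tested genes, and limma-voom called 4 and DESeq2 3. All 10 cardiomyocyte markers had negative fold changes, with a median log2 fold change of -1.24 and 0 called. Their summed level was 3624, 1939, 875 and 627 CPM in parental libraries 1 to 4. Mutant libraries 1 to 4 had 827, 790, 958 and 122 CPM, with overlap between the lines. Mutant libraries 1 to 3 lay inside the parental range. Only mutant library 4, in which fewer genes were detected, lay below it. Of 5 tested smooth muscle markers, 0 had a positive fold change, with Acta2 at 531 ± 409 and 389.6 ± 58.2 CPM (SD, n = 4). The parental Acta2 values were 1080, 602, 256 and 185 CPM, and the mutant values of 327 to 444 CPM lay inside that range. The part of these markers in the Postn difference was not tested.

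Over the 8 libraries, the genes whose log2 CPM followed Postn most closely were Fyn, Kdelr2 and Nrp2, with Pearson's r of 0.970, 0.970 and 0.968 among 6860 genes with a mean of at least 20 CPM. Fyn encodes a Src family kinase, Kdelr2 a receptor that returns proteins to the endoplasmic reticulum, and Nrp2 a neuropilin co-receptor. With the mean of each line removed, the same r were 0.913, 0.943 and 0.944. These r describe the best matches out of many genes in libraries that share line and culture. None of the 3 passed the test between the lines, with log2 fold changes of 0.57, 0.31 and 0.61.

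The promoter windows of Postn, Tnc and Fstl1 are shown because these genes lie at opposite ends of the spread between parental cultures. Postn and Tnc had the largest relative SD of the 10 genes in parental libraries and Fstl1 the smallest. In mutant libraries Fbln2 had the largest, at 63.8% of the mean. The choice was made after these values were seen. Each window is the RefSeq sequence of GRCm38.p6 from 250 bases before to 50 bases after an annotated start, written 5′ to 3′ on the gene's strand, with capitals for TATAAA, the core of the TATA box. The windows are at chr3:54360857-54361156 (plus strand) for Postn, chr4:64046966-64047265 (minus strand) for Tnc and chr16:37776805-37777104 (plus strand) for Fstl1.
Postn: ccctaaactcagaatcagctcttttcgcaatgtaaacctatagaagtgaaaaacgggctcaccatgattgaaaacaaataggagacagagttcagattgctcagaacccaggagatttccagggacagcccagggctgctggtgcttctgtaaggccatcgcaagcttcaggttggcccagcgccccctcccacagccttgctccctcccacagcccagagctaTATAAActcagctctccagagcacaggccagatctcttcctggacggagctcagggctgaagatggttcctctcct
Tnc: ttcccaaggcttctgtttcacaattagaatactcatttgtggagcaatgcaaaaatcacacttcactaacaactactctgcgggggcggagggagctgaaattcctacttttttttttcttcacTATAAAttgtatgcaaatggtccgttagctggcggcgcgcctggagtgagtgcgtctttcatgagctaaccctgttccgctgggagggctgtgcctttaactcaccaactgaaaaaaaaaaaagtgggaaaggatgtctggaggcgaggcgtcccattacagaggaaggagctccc
Fstl1: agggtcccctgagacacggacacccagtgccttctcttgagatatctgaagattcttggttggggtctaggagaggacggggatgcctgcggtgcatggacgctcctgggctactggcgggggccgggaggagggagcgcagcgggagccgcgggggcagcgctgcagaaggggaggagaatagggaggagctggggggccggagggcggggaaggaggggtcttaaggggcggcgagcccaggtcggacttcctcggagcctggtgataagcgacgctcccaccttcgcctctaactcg
The Postn window held TATAAA with its first letter at position -26, and the Tnc window held it at -126, counted from the start base as 0. Counted from the start of the other annotated Tnc window, the same match lay at -205. That other window, which is not shown, also holds the letters tatataag shortly before its start. The search for TATAAA does not match those letters. Whether any of these stretches acts as a TATA box was not tested. No TATAAA was found in the Fstl1 window, which had a GC content of 66.7% against 53.0% for Postn and 47.3% for Tnc. The window of the uneven gene Fbln2, with a GC content of 60.3%, held no TATAAA either, and another Postn window also lacked TATAAA. Any link of TATAAA or GC content with the spread was not tested.

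RefSeq windows were matched for 8 of the 10 genes, 11 windows in all, and were searched on both strands for 4 sets of letters, none of which contains another. TATAAA was present in 3 of the 11, namely the Postn window shown and both windows of Tnc, which overlap and share 1 match. The share among 32817 windows of all genes was 13.6%. GGTGTG, a core of T-box binding sites, was present in 0 of 11 windows and in 19.1% of all windows. The E-box CANNTG was present in 8 of 11 and in 72.3% of all windows, and the GC box GGGCGG in 6 of 11 and in 35.6%. The windows of Fbln1 overlap too. E-box matches shared by overlapping windows of Fbln1 and of Tnc, and the GC box of Tnc, were counted in each window. These are matches of letters in short windows.

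Fibronectin binds cells through integrins and was, with Sparc, among the most abundant of these RNAs. Fn1 (ENSMUSG00000026193.15, chromosome 1, 71585520 to 71653200, minus strand) had 701, 613, 551 and 445 CPM in parental libraries 1 to 4. Its mutant values were 881, 568, 751 and 834 CPM. The lines overlapped because mutant library 2 lay below parental libraries 1 and 2. The means were 577 ± 108 and 758 ± 138 CPM (SD, n = 4), or 0.39 ± 0.14 (SE) on the log2 scale (edgeR adjusted p = 0.217, unadjusted p = 0.0110). GENCODE lists 9 coding transcripts of Fn1 that end at 5 positions, and counts per gene do not separate them. Splice forms that differ in internal exons, for which fibronectin and tenascin C are known, are not seen by an assay of 3′ ends.

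Fibrillin 1 and fibrillin 2 build the same microfibrils, fibrillin 2 being prominent in the embryo. Fbn2 (ENSMUSG00000024598.9, chromosome 18, 58008623 to 58210487, minus strand) had 197, 173, 195 and 198 CPM in parental libraries 1 to 4. Mutant libraries 1 to 4 had 185, 185, 216 and 210.03 CPM. The Fbn2 log2 fold change was 0.06, with a 95% interval of -0.17 to 0.29. That interval and an SD of 6.15% of the mean in parental and 8.23% in mutant libraries make Fbn2 one of the most even genes of the 10.

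Fbn1 (ENSMUSG00000027204.13, chromosome 2, 125300594 to 125507993, minus strand) was less abundant than Fbn2 in every library. It had 63.1, 61.2, 50.4 and 45.1 CPM in parental and 88.0, 67.3, 68.5 and 81.6 CPM in the mutant libraries. The lines did not overlap for Fbn1, with a gap from 63.1 to 67.3 CPM. Its log2 fold change of 0.47 ± 0.16 (SE) nevertheless did not pass over all genes (edgeR adjusted p = 0.189). The count ratio of Fbn2 to Fbn1, which depends on neither depth nor scaling, was 3.11, 2.83, 3.85 and 4.38 in parental and 2.10, 2.74, 3.15 and 2.57 in mutant libraries. The ratios of the lines overlapped and differed by -0.42 on the log2 scale, mutant minus parental. A two-sided exact permutation test over 70 assignments gave p = 0.0857, and 0.171 after adjustment over 2 ratios, where the smallest p possible is 0.0286.

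Fibulins bridge microfibrils, elastin and basement membranes. Fbln1 (ENSMUSG00000006369.14, chromosome 15, 85205949 to 85286535, plus strand) had 87.8, 109, 94.3 and 83.4 CPM in parental and 88.4, 100.2, 106 and 112 CPM in the mutant libraries. These ranges overlapped almost fully, and the log2 fold change of 0.11 had a 95% interval of -0.17 to 0.39. Fbln2 (ENSMUSG00000064080.12, chromosome 6, 91212455 to 91272540, plus strand) was lower and far more uneven, with 20.7, 12.7, 9.41 and 13.7 CPM in parental libraries. Its mutant values were 19.8, 15.9, 3.81 and 7.15 CPM, from 21 to 118 counts. Mutant libraries 1 and 2 lay inside the parental range, and libraries 3 and 4 lay below it. The log2 fold change of Fbln2 was -0.27 with a wide 95% interval of -1.16 to 0.62, and it was 0.022 without mutant library 3. Fbln2 was expressed below Fbln1 in all 8 libraries, at ratios of 0.101 to 0.237 in parental and 0.0370 to 0.225 in mutant libraries. That ratio did not separate the lines (two-sided exact permutation p = 0.371, difference -0.60 on the log2 scale).

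Emilin 1 is a glycoprotein at the interface of elastin and microfibrils. Emilin1 (ENSMUSG00000029163.9, chromosome 5, 30913402 to 30921277, plus strand) had 50.0, 37.7, 54.7 and 40.0 CPM in parental and 53.8, 46.4, 57.6 and 64.1 CPM in the mutant libraries. The highest value was in mutant library 4 and the 2 lowest in parental libraries 2 and 4, with overlap between the lines. Its log2 fold change of 0.28 ± 0.17 (SE) did not pass (edgeR adjusted p = 0.579).

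SPARC is a collagen-binding protein of basement membranes and remodelling tissue. Sparc (ENSMUSG00000018593.13, chromosome 11, 55394500 to 55423183, minus strand) had 925, 718, 539 and 563 CPM in parental and 963, 644, 781 and 710.1 CPM in the mutant libraries. Library 1 was the highest in both lines, and the lines overlapped. The means of 686 ± 178 and 775 ± 138 CPM (SD, n = 4) gave a log2 fold change of 0.18, with a 95% interval of -0.14 to 0.49. The genes most like Sparc over the 8 libraries were Jpt1, Cdh5 and Anxa6, with Pearson's r of 0.967, 0.963 and 0.962. Cdh5 encodes the endothelial cadherin. The summed level of 9 endothelial markers was likewise highest in library 1 of each line, at 774 CPM in parental and 1087 CPM in the mutant libraries, against 470 to 665 and 552 to 577 CPM in the others. Markers of parietal and visceral endoderm, another known source of SPARC, summed to 534 to 870.4 CPM in parental and 588 to 791 CPM in the mutant libraries, most of it from Lamb1 and Col4a1, while Pthlh had 0 counts. They too were highest in library 1 of each line, as were the smooth muscle markers (1254 and 503 CPM) and the blood markers (197 and 993 CPM). The part of any of these lists in the level of Sparc was not tested.

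Follistatin-like 1 is a secreted glycoprotein with a follistatin domain like that of SPARC. Fstl1 (ENSMUSG00000022816.11, chromosome 16, 37776873 to 37836514, plus strand) had 429.9, 441, 416 and 386 CPM in parental and 399, 335, 312 and 401 CPM in the mutant libraries. Mutant libraries 2 and 3 lay below every parental library, and libraries 1 and 4 lay inside the parental range. The means were 418 ± 23.6 and 362 ± 45.1 CPM (SD, n = 4). The difference of -0.21 ± 0.11 (SE) on the log2 scale did not pass (edgeR adjusted p = 0.454), and its 95% interval ran from -0.43 to 0.01.

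Tenascin C is a large oligomeric protein of remodelling matrix, to which periostin binds. Tnc (ENSMUSG00000028364.15, chromosome 4, 63959785 to 64047015, minus strand) had 22.0, 12.4, 11.2 and 6.32 CPM in parental and 7.22, 19.8, 5.45 and 15.7 CPM in the mutant libraries. Both lines held high and low cultures, and mutant libraries 1 and 3 were low where 2 and 4 were high. With 30 to 121 counts per library, counting alone would give an SD of 11.7% of the mean in parental and 13.5% in mutant libraries, whereas the observed SD was 50.6% and 56.8%. The log2 fold change was -0.12 with a 95% interval of -1.02 to 0.78. Its sign turned positive without parental library 1 (0.25), mutant library 1 (0.06) or mutant library 3 (0.12).

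**Figure D3:**
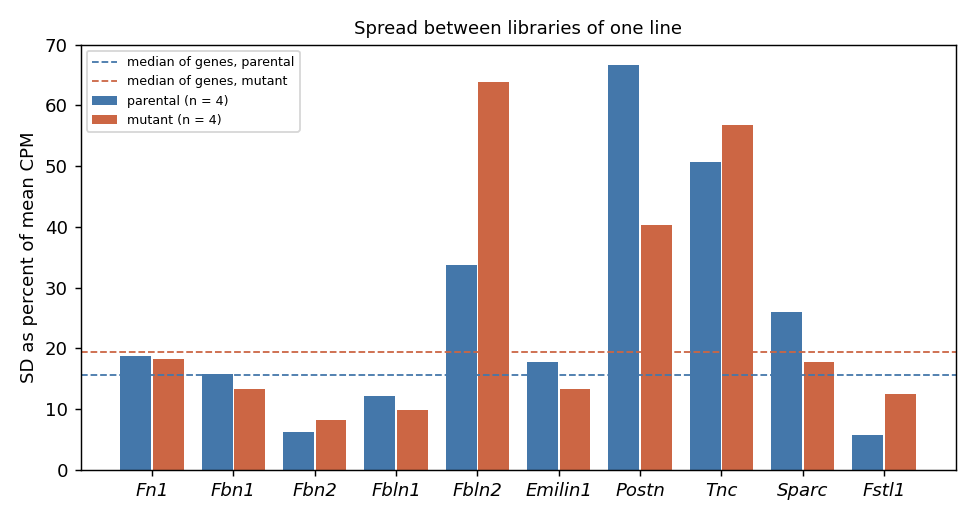
SD between the 4 libraries of a line as percent of the mean CPM, for each of the 10 matrix genes in parental (blue) and mutant (orange) libraries; dashed lines give the medians over 9026 genes with a mean of at least 10 CPM, 15.6% and 19.4%. Postn, Tnc and Fbln2 are above both medians in both lines, with Postn at 66.7% in parental libraries, while Fbn2, Fbln1 and Fstl1 are below both in both lines.

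The genes also differed in which culture was high, apart from the line. Parental library 1 was the highest of its line for 6 of the 10 genes and parental library 4 the lowest for 6. In the mutant line, library 1 was the highest for 5 genes and library 2 the lowest for 5. Mutant library 4, in which fewer genes were detected, was the highest for 3 of the 10 and the lowest for 0.

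Other genes of these matrices and their receptors were examined in 4 lists, in which 51 of 80 genes passed the low-count filter. By edgeR 0 of the 51 were called in either direction, against 1.42% of all tested genes. An unadjusted p under 0.05 was found for 8 of the 51, against 11.9% of all tested genes. The limma-voom fit also called 0, and DESeq2 called 1, Adamtsl1, which was named after its values were seen. That gene had 1.03 CPM in parental and 7.80 CPM in the mutant libraries on average (edgeR adjusted p = 0.0780). The median log2 fold change over the 51 was 0.19, and 34 of 51 were positive, beside 50.2% of all tested genes. Of 17 tested elastic fibre and microfibril genes, 13 were positive. Among these, Mfap2, a microfibril component, was the most abundant with 100.03 ± 6.71 CPM in parental and 125 ± 18.4 CPM in the mutant libraries (SD, n = 4), followed by Mfap3, a microfibril-associated protein gene, with 97.2 and 92.6 CPM. Eln, which encodes elastin itself, was named outside the rule and had 8.17 ± 4.64 and 9.80 ± 3.38 CPM. Its level was far below that of Fbn2 in every library.

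Matricellular genes other than those described above had 5 of 12 positive and a median log2 fold change of -0.24. Sparcl1, a relative of Sparc, was the most abundant with 144 ± 18.8 CPM in parental and 98.7 ± 41.5 CPM in the mutant libraries (SD, n = 4), and its log2 fold change of -0.54 did not pass (edgeR adjusted p = 0.309). Tgfbi, a paralogue of Postn, had 44.7 ± 2.69 and 53.1 ± 11.7 CPM, which differed by 0.25 on the log2 scale (edgeR adjusted p = 0.635). The list of other glycoproteins and the follistatin family had 8 of 9 positive at low levels, led by the activin antagonist Fst with 12.8 and 17.2 CPM and the integrin ligand Npnt with 10.96 and 16.2 CPM.

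Receptors that bind fibronectin and matricellular proteins had 8 of 13 positive and a median log2 fold change of 0.17. The shared beta subunit gene Itgb1 had 371 ± 31.8 CPM in parental and 392 ± 28.0 CPM in the mutant libraries (SD, n = 4), and Itgb5 had 87.1 and 83.9 CPM. Itga5, the alpha subunit of the main fibronectin receptor, was named outside the rule and lay at 7.71 and 9.18 CPM, far below Itgb1.

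**Figure D4:**
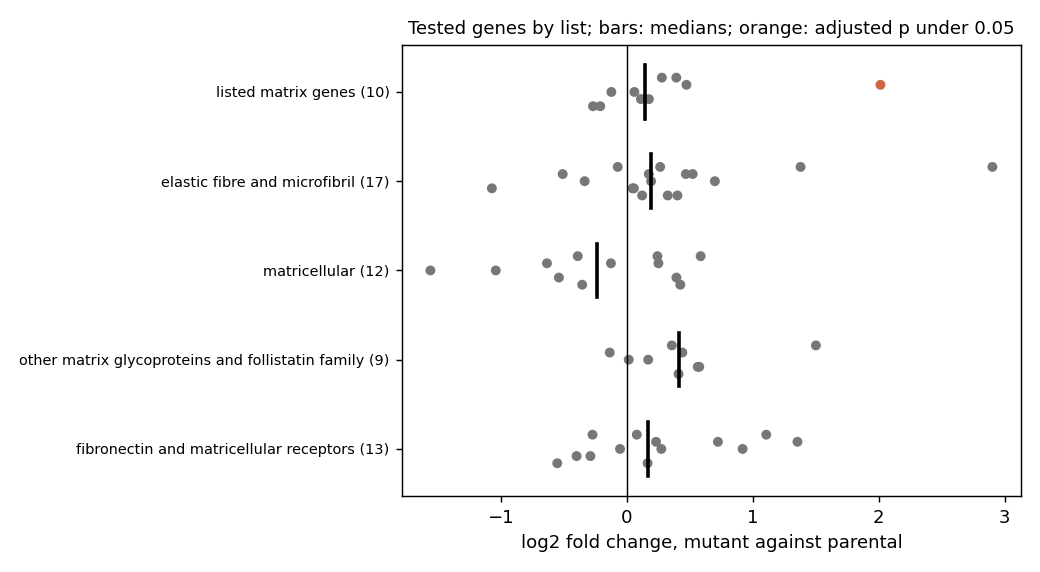
Log2 fold change, mutant against parental, of every tested gene (points) in the 10 matrix genes and 4 lists of related genes, with the number tested in brackets and a bar at each median; orange marks an adjusted p under 0.05. Postn is the single orange point, and the medians run from -0.24 for other matricellular genes to 0.41 for other glycoproteins; vertical offsets only separate points.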

How the data were processed

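RNA from 4 parental and 4 mutant cultures was measured by QuantSeq. The authors deposited whole-number counts per gene and library, neither normalized nor pooled; per the submitters' processing notes, STAR, featureCounts and build mm10 were used. The table's name gives the forward strand. Versions, annotation and handling of duplicate reads are not given in the sources used here. Groups came from titles. Counts of the 12 pairs of libraries within a line differed by 7.25 to 26.4 times counting noise (chi-square per degree of freedom), so none was a duplicate. Of 55487 identifiers, 55227 matched GENCODE M21 (GRCm38), which gave symbols and coordinates.

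Genes were filtered with filterByExpr at its defaults, scaled by TMM and compared with edgeR 4.0.16 (glmQLFit and glmQLFTest, line as the only term) in R 4.3.3, with Benjamini-Hochberg adjustment over 13280 genes at 0.05. The 95% intervals use the standard error, which was derived from the fold change and F statistic. The fit was tested on simulated data for this comparison with 12814 genes, where 57% of 2-fold (log2 of 1) and 90.7% of 4-fold (log2 of 2) changes were recovered. Ratios used 0.5 added counts; log2 CPM used a prior count of 2. Alternatives covered scaling, filter, tool (DESeq2 1.42.0, limma-voom from limma 3.58.1), robust empirical Bayes, thinning, a replicate block and leaving out each library.

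The matrix genes and all lists were chosen with earlier results of these data known. Genes named were Tbx1, the 10 matrix genes, called genes and the 2 most abundant of each list of related genes, the 3 genes most like Postn and like Sparc, and markers; others are said to lie outside this rule. PCR reads without molecular identifiers are not independent molecules, so counting errors and the floor of 3 counts cover counting only.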

Additional observations from a re-analysis of the deposited data

Results flagged for a closer look

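Fbn2 in parental library 2, at 173 CPM, lay far from the other 3 parental libraries, which had 195 to 198 CPM; its gap to the nearest was 0.858 of the whole range, above the 95% critical value of Dixon's test. It was the 1 flag among 26 groups of 4 values examined, where chance flags about 1 in 20.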

How the results depend on the processing

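Of 10 matrix genes 1 was called, Postn, under 8 of the 10 alternatives that used all libraries, and leaving out single libraries gave 0 to 1. It was 0 with robust empirical Bayes in edgeR and 2 with no filter beyond at least 1 count, where Fn1 was added (0.38, edgeR adjusted p = 0.0313). That unfiltered fit held 26750 genes and also lowered the SE of Postn from 0.38 to 0.20, with its log2 fold change still at 2.01. The Postn log2 fold change stayed positive, at 1.71 to 2.39, and its adjusted p reached 0.143. Related genes on the 4 lists had 2 calls without the filter (Adamtsl1 higher and Sparcl1 lower) and 1 with DESeq2 (Adamtsl1); leaving out single libraries gave 0 to 1. Over all genes 188 were called, but 439 without the filter, 405 with DESeq2, and 103 to 235 without single libraries. Scaling by library size alone moved the split to 100 higher and 57 lower, from 99 and 89. Without single libraries, the sign turned for Fbln2 (-0.66 to 0.022) and Tnc (-0.49 to 0.25), and it held for the other 8 genes under each alternative run. Both ratios kept their direction under each alternative; their p says little about stability, since 8 libraries and 2 ratios hardly allow an adjusted p under the threshold. The causes of these changes were not tested.

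The labels give both lines replicate numbers 1 to 4 and no shared batch. Over all tested genes, deviations of same-numbered libraries correlated at -0.03 to 0.10, and 1 of 4 pairs exceeded 0.1, so the numbers were not taken as pairs. That pair was library 1 of each line, which was also the highest of its line for Postn and Sparc. A correlation over all genes can miss a pairing that affects few genes. A fit with a replicate block called 234 genes, placed Postn at 2.15 (edgeR adjusted p = 0.000512) and called no other matrix gene. Fbln2 and Tnc had low counts, 21 to 121 per library, but their spread was larger than counting gives, at 33.6% to 63.8% of the mean against 11.4% to 13.5%.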
